A study of Homo sapiens with 6 samples.

Results

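Leucine, isoleucine and valine share the branched-chain amino acid (BCAA) pathway, and 9 genes of its common steps and of the leucine branch are described here. They are BCAT1 and BCAT2, BCKDHA, BCKDHB and DBT, IVD, MCCC1 and MCCC2, and AUH. The rule for them was their place in the pathway, it was set with earlier results of these data known, and they are 9 of the 38100 genes in the deposited tables. The cells were HK2, an immortalised human line of proximal tubular epithelial cells of the kidney, labelled wild type. Cells given an adenovirus with an empty vector (AdCtrl) were compared with cells given an adenovirus carrying SIRT4 (AdSirt4), 3 samples each. Both groups were stimulated with TGF-β1, a cytokine that drives fibrosis, so no sample shows the pathway without adenovirus or without TGF-β1. Poly(A) RNA was sequenced in bulk. In such data fewer expressing cells and less RNA per cell cannot be told apart.

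Cells first move the amino group of a BCAA to 2-oxoglutarate, a step run by BCAT1 in the cytosol and BCAT2 in mitochondria. The branched-chain ketoacid dehydrogenase (BCKDH) in the mitochondrial matrix then removes carbon dioxide in the committed step. Its E1 part is made of the BCKDHA and BCKDHB proteins, and its E2 core of the DBT protein. In the leucine branch IVD oxidises isovaleryl-CoA, 3-methylcrotonyl-CoA carboxylase (MCC, from MCCC1 and MCCC2) adds a carboxyl group with the help of biotin, and AUH adds water to give HMG-CoA. SIRT4 is a mitochondrial sirtuin known to bind MCC and to take acyl groups off its lysines. RNA levels show neither acyl marks nor enzyme activity, and neither was measured here.

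The biotin of MCC is held by 1 lysine of MCCC1, inside a Met-Lys-Met stretch that the biotin carboxylases share, and the coding sequence around it is shown because it ties MCCC1 to the other biotin enzymes followed below. The 27 bases per gene run 5′ to 3′ on the coding strand of GENCODE v29 transcripts (GRCh38), with the Met-Lys-Met codons in capitals.
MCCC1: atgatcgccATGAAGATGgagcatacc
PCCA: attgaagccATGAAAATGcagaatagt
PC: ctcagtgccATGAAGATGgagactgtg
ACACA: attgaggtaATGAAGATGgtaatgacc
A search of each protein for alanine or valine before Met-Lys-Met found 1 match per gene, at lysine 681 of 725 residues in MCCC1, 694 of 728 in PCCA, 1144 of 1178 in PC and 823 of 2383 in ACACA. In MCCC1 the stretch crosses an intron, and its capitals begin in exon 18 of 19 (chr3:183015561-183017286, minus strand). The PCCA and PC stretches each shared 18 of 27 bases with that of MCCC1, and the ACACA stretch shared 16. PCCA lies at chr13:100527702-100527728 (plus strand, exon 23 of 24) and PC at chr11:66848992-66849018 (minus strand, exon 21 of 21), while the ACACA stretch crosses an intron at chr17:37245194-37246831 (minus strand, capitals from exon 20 of 56).

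Libraries held 53677241, 42102861 and 50190728 counts in AdCtrl and 41537353, 85684748 and 80040053 in AdSirt4. Values of samples are given in the order of replicates 1 to 3 throughout. AdSirt4 replicates 2 and 3 were deeper than every AdCtrl library, so without AdSirt4 replicate 1 depth and group cannot be told apart. SIRT4 had 31, 47 and 57 counts in AdCtrl and 1996, 7995 and 6827 in AdSirt4, where the virus and the cell's own gene cannot be told apart, with a log2 fold change of 6.36 (adjusted p = 0.00801, edgeR's quasi-likelihood test). In CPM (counts scaled by library size) SIRT4 was at 0.573, 1.11 and 1.11 in AdCtrl and at 51.2, 92.7 and 84.0 in AdSirt4. The AdSirt4 replicate 1 library stood apart. Relative to the other AdSirt4 samples its genes deviated with length, with a median log2 deviation of 0.74 in genes of 1.5 kb or less and -0.65 in genes of 8.74 kb or more, and it lay outside the range of the other 5 samples for 73.2% of genes. The results for each of the 9 genes are therefore also given without it. All 8 kidney epithelium markers examined (PAX8, CDH16 and KRT8 among them) averaged at least 1 CPM, with a summed level of 2338 to 2403 CPM in AdCtrl and 2248 to 2537 CPM in AdSirt4. Only 2 of 8 markers of mature proximal tubule did so (GGT1 and SLC5A2). The 8 summed to 229 to 250.4 CPM in AdCtrl and 213 to 223 CPM in AdSirt4, nearly all from GGT1. Endothelial markers summed to at most 0.742 CPM. Fibroblast markers summed to 41.7 to 45.1 CPM in AdCtrl and 39.9 to 40.8 CPM in AdSirt4, nearly all from LUM and COL1A1, with COL3A1 at 0. Immune markers summed to 2.35 to 3.13 CPM over all samples, nearly all from CD14, with CD3E at 0, and podocyte markers to 4.11 to 6.40 CPM, nearly all from PODXL. The part of these differences in the results was not tested.

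No difference between the groups larger than the spread of the samples was detected for any of the 9 genes. All 9 were expressed, with raw counts between 863 and 12026, and all 9 passed the filter on low counts. Of them, 0 had an adjusted p under 0.05 (edgeR, Benjamini-Hochberg), where 0.0113% of all 17720 tested genes did, and 0 had an unadjusted p under 0.05, where 7.93% of all tested genes did. In CPM the groups overlapped for each of the 9 genes, against 19.4% of tested genes whose groups did not overlap. Fitted as AdSirt4 against AdCtrl, the log2 fold change was below 0 for 7 genes and above 0 for AUH and BCAT2, where 46.6% of tested genes lay below 0. The median over the 9 genes was -0.11 and over all tested genes 0.021. Without AdSirt4 replicate 1, 0 of 9 had an adjusted p under 0.05 (background 6.71%) and 2, MCCC1 and BCAT2, an unadjusted p under 0.05 (background 24.3%). The groups then did not overlap for MCCC1, BCAT2 and BCKDHB, which is 3 of 9 against a background of 41.8%. With the replicate number as a block, 0 of 9 genes passed either threshold (backgrounds 0.00564% and 7.2%).

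**Figure D1:**
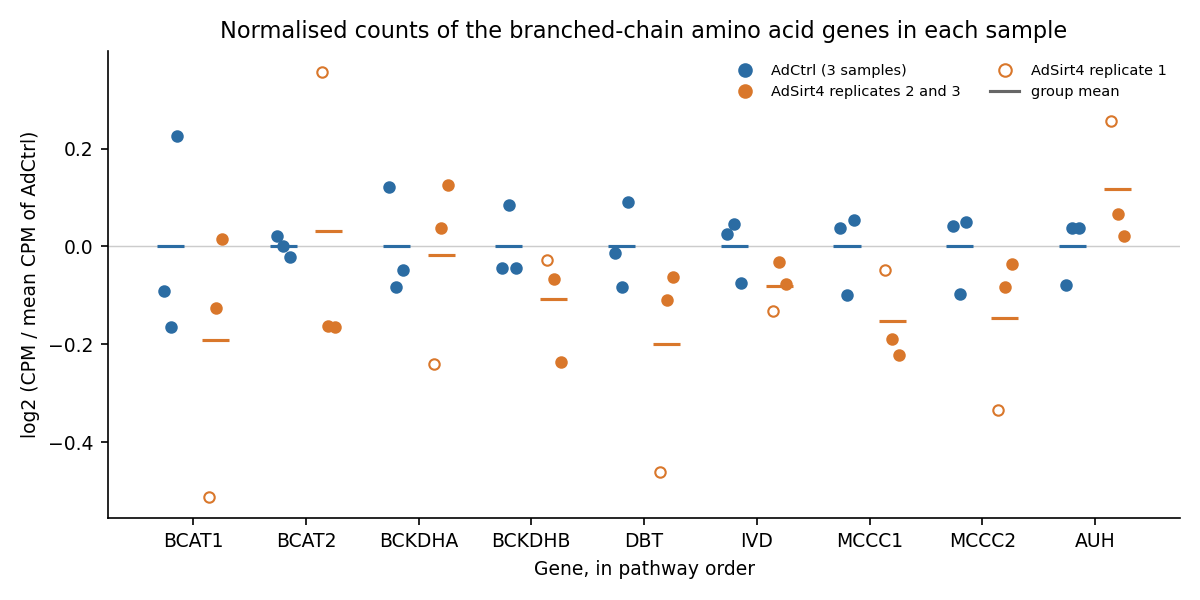
Each point is 1 sample, plotted as log2 of its CPM over the mean CPM of the 3 AdCtrl samples (y axis), for the 9 genes in pathway order (x axis), with a short bar at each group's mean. The open points of AdSirt4 replicate 1 lie lowest of all 6 samples for BCAT1, BCKDHA, DBT, IVD and MCCC2 and highest for BCAT2 and AUH, and in no gene are the groups fully apart.

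The 9 genes are taken in pathway order, with positions from GENCODE v29 (GRCh38). BCAT1, the cytosolic enzyme (chr12:24810022-24949459, minus strand), was at 137.5, 130.7 and 171.1 CPM in AdCtrl and at 102.8, 134.3 and 148.0 CPM in AdSirt4. AdSirt4 replicate 1 was the lowest sample, and the other 2 AdSirt4 samples lay within the AdCtrl range. The fitted log2 fold change was -0.19 (SE, standard error, 0.169, edgeR adjusted p = 0.773), and it was -0.058 without that replicate. BCAT1 had the widest AdCtrl spread of the 9 genes in CPM (SD 21.6 CPM around a mean of 146, n = 3).

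BCAT2, the mitochondrial enzyme (chr19:48795062-48811029, minus strand), was at 36.99, 36.46 and 35.93 CPM in AdCtrl and at 46.68, 32.58 and 32.54 CPM in AdSirt4. The AdCtrl samples were nearly equal, AdSirt4 replicate 1 lay above them and AdSirt4 replicates 2 and 3 below them. Over all samples the log2 fold change was 0.030 (SE 0.156, edgeR adjusted p = 0.952), with a sign that turned to -0.081 once each library's trend on gene length was removed. Without AdSirt4 replicate 1 it was -0.17 (95% interval -0.30 to -0.037), or -11.0% as a change in level, with an adjusted p of 0.116 in edgeR's fit.

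Of the dehydrogenase, BCKDHA codes for the E1 alpha subunit (chr19:41397460-41425005, plus strand). It was at 28.45, 24.69 and 25.30 CPM in AdCtrl and at 22.15, 26.84 and 28.52 CPM in AdSirt4, so the AdSirt4 samples spanned the whole AdCtrl range. In the fit BCKDHA was at -0.016 (SE 0.126, edgeR adjusted p = 0.967), or 0.076 without AdSirt4 replicate 1. The annotation holds a second gene, AC011462.1, whose exons share 1660 bases with those of BCKDHA on the same strand, so reads could be split between them and the BCKDHA count is uncertain.

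BCKDHB, the E1 beta subunit (chr6:80106647-80346270, plus strand), was at 31.42, 34.34 and 31.44 CPM in AdCtrl and at 31.77, 30.92 and 27.51 CPM in AdSirt4. The sample that kept the groups from separating was AdSirt4 replicate 1. BCKDHB had a log2 fold change of -0.11 (SE 0.101, edgeR adjusted p = 0.776) with all samples and -0.15 (95% interval -0.32 to 0.012) without that one.

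DBT, the E2 core that passes the acyl group on (chr1:100186919-100249834, minus strand), was at 51.86, 49.43 and 55.73 CPM in AdCtrl and at 38.05, 48.55 and 50.10 CPM in AdSirt4. AdSirt4 replicate 1 was far below the other samples, and only AdSirt4 replicate 3 lay inside the AdCtrl range. With all samples DBT had the lowest fitted value of the 9 genes, with a log2 value of -0.20 (SE 0.128, edgeR adjusted p = 0.731). It was -0.091 without AdSirt4 replicate 1 (SE 0.0603, edgeR adjusted p = 0.385), and MCCC1, BCAT2 and BCKDHB were then lower. DBT is also the longest of the 9 (12.4 kb as implied by counts and FPKM), and with the length trend removed the value was -0.015.

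IVD, which oxidises isovaleryl-CoA and gives its electrons to the flavoprotein ETF (chr15:40405795-40435947, plus strand), was at 54.27, 55.08 and 50.65 CPM in AdCtrl and at 48.65, 52.15 and 50.57 CPM in AdSirt4. The groups overlapped in CPM, though 2 of the 3 AdSirt4 samples lay below the lowest AdCtrl sample. In FPKM (counts scaled by library size and gene length) IVD was at 13.1, 13.2 and 12.9 in AdCtrl and at 10.7, 12.4 and 12.1 in AdSirt4, without overlap. The share of all genes without overlap in FPKM was not computed. IVD came to a log2 value of -0.080 (SE 0.0869, edgeR adjusted p = 0.795) and -0.059 without AdSirt4 replicate 1. IVD had the narrowest of the 9 intervals with all samples, which as a change in level ran from -17.9% to 9.06%.

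MCCC1 carries the biotin of MCC (chr3:183015218-183116075, minus strand). It was at 45.31, 41.21 and 45.82 CPM in AdCtrl and at 42.65, 38.70 and 37.82 CPM in AdSirt4. AdSirt4 replicates 2 and 3 lay below every AdCtrl sample, and AdSirt4 replicate 1 lay between AdCtrl replicates 1 and 2. MCCC1 had a log2 fold change of -0.15 (SE 0.0973, 95% interval -0.38 to 0.078, edgeR adjusted p = 0.731). Without AdSirt4 replicate 1 it was -0.21 (95% interval -0.35 to -0.070), or -13.6% as a change in level, and its adjusted p of 0.0739 (edgeR) was the lowest of any of the 9 genes in any fit. On the FPKM scale MCCC1 was at 16.6, 14.6 and 17.1 in AdCtrl and at 14.1, 14.2 and 14.0 in AdSirt4, and there the groups did not overlap, as in IVD. For both genes the separation held in FPKM and not in CPM, so it depended on the scaling, which in FPKM includes each library's gene length. The implied length of IVD was 4.10 to 4.18 kb in AdCtrl and 4.25 to 4.28 kb in AdSirt4. That of MCCC1 was 2.75 to 2.80 kb and 2.77 to 2.82 kb. No share over all genes was computed for FPKM. Genes on the opposite strand share exon bases with MCCC1 (MCCC1-AS1, 72 bases), DBT (AL445928.2, 40 bases), BCKDHA (EXOSC5, 20 bases) and BCAT1 (AC026310.3, 209 bases, AC026310.2, 168 bases, and AC023796.2, 82 bases), and without strand their reads cannot be told apart.

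MCCC2, the carboxyltransferase partner of MCCC1 (chr5:71587288-71658704, plus strand), was at 74.30, 67.51 and 74.69 CPM in AdCtrl and at 57.25, 68.10 and 70.43 CPM in AdSirt4. AdSirt4 replicates 2 and 3 lay inside the AdCtrl range and AdSirt4 replicate 1 below it. For MCCC2 the fit gave -0.14 (SE 0.110, edgeR adjusted p = 0.749), and -0.065 without that replicate. In MCCC1 AdSirt4 replicate 1 was the highest of its group, and in MCCC2 it was the lowest.

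AUH, the hydratase after MCC (chr9:91213815-91361913, minus strand), was at 25.63, 27.75 and 27.78 CPM in AdCtrl and at 32.31, 28.34 and 27.45 CPM in AdSirt4. AdSirt4 replicates 1 and 2 lay above every AdCtrl sample and AdSirt4 replicate 3 within their range. AUH was the gene with the highest fitted value, with a log2 value of 0.12 (SE 0.103, edgeR adjusted p = 0.769), which was 0.040 without AdSirt4 replicate 1.

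The design bounds what could have been missed. The 95% intervals of the log2 fold change were widest for BCAT1, at -0.59 to 0.21, or -33.6% to 15.8% as a change in level. For BCAT2 they reached from -21.0% to 31.9%, for DBT from -29.4% to 7.48% and for MCCC1 from -23.2% to 5.52%. Counting error was smaller than this spread, at most 3.40% of a value, for the smallest count of BCKDHA. The labels do not say that the samples came from separate cultures, and the study's reporting checklist describes replicates of its cell experiments as technical. The p-values and intervals therefore measure the spread between these samples, which may be technical only.

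**Figure D2:**
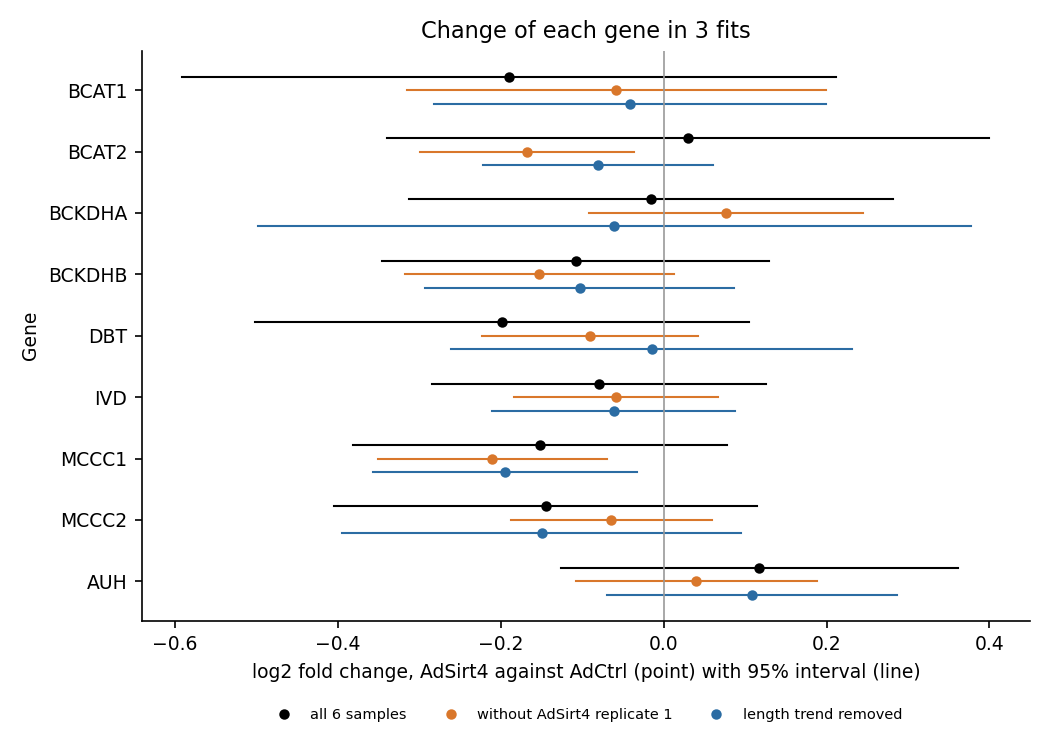
Points are edgeR's log2 fold change between AdSirt4 and AdCtrl (x axis, positive where AdSirt4 is higher) for the 9 genes (y axis), and lines are 95% intervals. Black is all 6 samples, orange is without AdSirt4 replicate 1 and blue is with each library's length trend removed, and all black lines cross 0 while MCCC1 lies wholly below 0 in the other 2 fits and BCAT2 in the orange one.

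Gene length ran through the scatter of AdSirt4 replicate 1. Against the mean of the other AdSirt4 samples, the replicate differed in log2 CPM by 0.52 for BCAT2 (1.79 kb), 0.16 for MCCC1 (2.77 kb), -0.46 for BCAT1 (10.5 kb) and -0.37 for DBT (12.4 kb). The short BCAT2 was thus high and the long BCAT1 and DBT were low in the same library. BCKDHA departed from this order, at -0.32 with a length of 1.99 kb, as did MCCC2 at -0.27 with 3.50 kb. Over the 9 genes the Spearman correlation of the difference with length was -0.60 and Pearson's r with log2 length was -0.64, given as a description since the points share one library. With the trend on length removed from every library, DBT and BCAT1 came to -0.015 and -0.041, while MCCC1 went to -0.19 (95% interval -0.36 to -0.033, adjusted p = 0.284 in edgeR's fit). In that fit 0 of 9 genes were called (background 0.0734%), and 1 of 9, MCCC1, had an unadjusted p under 0.05 (background 14.1%), and these counts were the same with the block added (backgrounds 0.0169% and 13.9%).

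**Figure D3:**
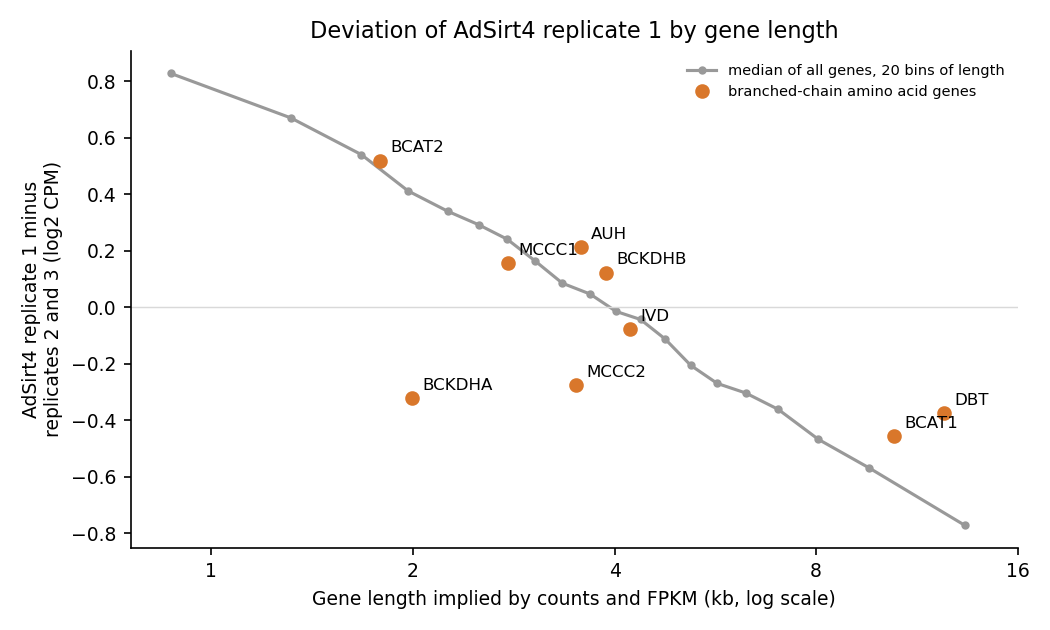
The y axis is log2 CPM of AdSirt4 replicate 1 minus the mean of AdSirt4 replicates 2 and 3, and the x axis is gene length in kb on a log scale, as implied by counts and FPKM. The grey line joins medians of all genes in 20 bins of length and falls from left to right, the orange points are the 9 genes, and BCKDHA and MCCC2 lie farthest below the line.

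Levels between genes were compared in FPKM, which divides by length. In AdCtrl the order was MCCC2 (20.9 ± 1.56 FPKM, SD, n = 3), BCAT2 (20.7 ± 0.441), MCCC1 (16.1 ± 1.36), BCAT1 (14.1 ± 2.66), BCKDHA (13.3 ± 1.11), IVD (13.1 ± 0.123), BCKDHB (8.07 ± 0.661), AUH (7.75 ± 0.556) and DBT (4.27 ± 0.396). The highest gene was 4.90 times the lowest, and the median of all tested genes was 4.49 FPKM. Neighbours in this order were separate in all AdCtrl samples at 3 places. BCAT2 was above MCCC1 by 1.29-fold, IVD above BCKDHB by 1.62-fold and AUH above DBT by 1.81-fold. The other 5 pairs of neighbours overlapped, among them BCKDHA and IVD, and BCKDHB and AUH.

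In AdSirt4 the order was BCAT2 (20.5 ± 3.44 FPKM), MCCC2 (18.3 ± 3.27), MCCC1 (14.1 ± 0.0812), BCKDHA (12.9 ± 2.24), BCAT1 (12.4 ± 2.93), IVD (11.7 ± 0.926), AUH (8.16 ± 1.21), BCKDHB (7.75 ± 1.34) and DBT (3.65 ± 0.698). The swaps against AdCtrl were all between genes whose samples overlapped. MCCC2 stayed above MCCC1 in all 3 samples, IVD above AUH (1.44-fold) and BCKDHB above DBT (2.12-fold). DBT, the core subunit, was the lowest of the 9 genes in every one of the 6 samples. The lengths implied for AUH and BCKDHB differed between samples (3.15 to 3.83 kb and 3.19 to 4.66 kb), so their FPKM depended on the length used in each library.

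**Figure D4:**
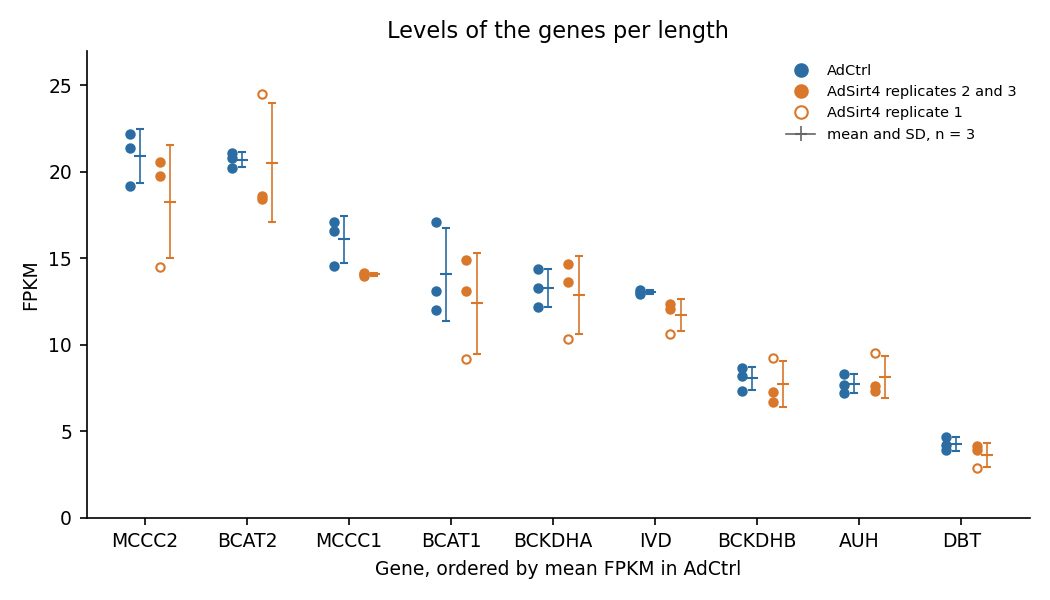
The y axis is FPKM and the x axis lists the 9 genes by their mean in AdCtrl, with 1 point per sample and a mean and SD (n = 3) beside each group. DBT sits lowest at 2.85 to 4.70 FPKM, and MCCC2 and BCAT2 share the top with 14.5 to 24.5 FPKM.

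Ratios of partner genes, taken in FPKM within a library, do not depend on library size. The length trend of AdSirt4 replicate 1 was not removed from them, and BCAT1 and DBT are far longer than their partners. MCCC1 over MCCC2 was 0.776, 0.759 and 0.772 in AdCtrl and 0.969, 0.717 and 0.680 in AdSirt4. The 3 AdCtrl ratios lay close together (0.769 ± 0.00868, SD, n = 3), while the AdSirt4 ratios spread to both sides of them (0.789 ± 0.157). The ratio of BCAT1 to BCAT2 was 0.678 ± 0.116 in AdCtrl and 0.629 ± 0.225 in AdSirt4, where AdSirt4 replicate 1 had 0.374, the lowest of the 6. BCKDHA over BCKDHB was 1.66 ± 0.220 in AdCtrl and 1.72 ± 0.523 in AdSirt4, and DBT over BCKDHB was 0.535 ± 0.0951 and 0.489 ± 0.157. The kinase BCKDK, which switches BCKDH off, over the phosphatase PPM1K, which switches it on, was 40.2 ± 5.52 in AdCtrl and 52.1 ± 7.93 in AdSirt4. The groups overlapped for all 5 ratios, with two-sided exact permutation p-values of 0.2 for BCKDK over PPM1K and 0.8 or 1 for the others, and all 5 were 1 after adjustment over the 5 ratios (the smallest p that 3 samples against 3 allow is 0.1). Without AdSirt4 replicate 1 the groups did not overlap for BCKDK over PPM1K, MCCC1 over MCCC2 and BCKDHA over BCKDHB, the last of which carries the uneven length of BCKDHB. No background was computed for ratios. The 41.8% of tested genes that did not overlap in these samples is for single genes in CPM, and is not a background for ratios. Without a background, the separation of these ratios is not read as a change.

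The genes whose profiles over the 6 samples were nearest to that of MCCC1 were ERLIN1, ASB3 and UQCRC2, with root mean square differences of 0.0202, 0.0210 and 0.0242 in centred log2 CPM, among 10357 genes with a mean of at least 10 CPM. None of the other 8 genes was near the top of that order. BCKDHB was nearest at 0.102 (place 1057), then IVD at 0.117 (place 1629), and MCCC2, the partner subunit, was at 0.146 (place 2972). BCAT1 was farthest at 0.230 (place 6717).

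Outside the 9 genes, 51 further genes of BCAA and biotin metabolism were followed in 7 lists. SLC6A19, a carrier of neutral amino acids, had no count in any sample and SLC7A8 had at most 14, which left 49 genes tested. Of these, 23 had a log2 fold change above 0 and 26 below 0, with a median of -0.028, and 0 were called. An unadjusted p under 0.05 was reached by 4, all with lower values in AdSirt4 (PC, SLC43A1, SESN2 and SESN3, background for lower genes 3.5%), and 9 of the 49 did not overlap between groups (background 19.4%). With the replicate block PC no longer passed that threshold and SLC7A5 did, so that 4 lower genes again passed (background 7.2% in both directions). Without AdSirt4 replicate 1, 50 genes were tested, 41 below 0 (50.6% of all tested genes lay there) and 9 above, with a median of -0.096 (all tested genes -0.0028). In that fit 7 of 50 were called, all lower (background 6.71% in both directions). An unadjusted p under 0.05 was reached by 17 lower genes and 1 higher gene (background 24.3% in both directions and 12.5% for lower genes alone). Its AdSirt4 libraries were both deeper than every AdCtrl library, so depth and group cannot be told apart there.

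Among the controls of BCKDH and the lipoylation genes, 5 of 7 had values above 0 and 2 below 0 with all samples, and 0 were called. PPM1K was at 6.64, 5.46 and 6.29 CPM in AdCtrl and at 5.82, 4.57 and 3.97 CPM in AdSirt4, with overlapping groups and a log2 fold change of -0.36 (adjusted p = 0.678, edgeR). Without AdSirt4 replicate 1 the groups did not overlap and PPM1K fell by 0.53 on the log2 scale (adjusted p = 0.0384). BCKDK was at 86.5, 85.3 and 82.8 CPM in AdCtrl and at 87.1, 83.5 and 78.6 CPM in AdSirt4, with a log2 fold change of -0.031. DLD, the E3 subunit, had a log2 fold change of 0.088 and LIAS, which makes the lipoyl group, one of 0.16. Without AdSirt4 replicate 1 DLD was at -0.044 (SE 0.0527) and LIAS at -0.0040 (SE 0.0820), each smaller than its SE.

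In ketone use at the end of leucine breakdown, 4 genes were tested, 2 with values above 0 and 2 below, and 0 were called in either fit. ACAT1, the thiolase, was at 50.5, 49.0 and 50.5 CPM in AdCtrl and at 75.4, 46.9 and 44.3 CPM in AdSirt4. AdSirt4 replicate 1 was highest and the other 2 AdSirt4 samples lowest, and its log2 fold change was 0.15 with all samples and -0.14 without that replicate. BDH1, which turns acetoacetate into 3-hydroxybutyrate, had a log2 fold change of -0.080.

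The valine and isoleucine branch held 4 of the 7 genes called without AdSirt4 replicate 1, out of 13 tested (6.71% of all tested genes were called in that fit). In it 11 of the 13 lay below 0, with a median of -0.15, whereas with all samples 7 of the 13 lay above 0, with a median of 0.083, and 0 were called. The called genes were PCCA, PCCB, HIBADH and MCEE, the last named after its values were seen. PCCB, a subunit of propionyl-CoA carboxylase, was at 30.6, 32.1 and 30.6 CPM in AdCtrl and at 29.5, 26.2 and 25.7 CPM in AdSirt4. The groups did not overlap even with all samples, where the log2 fold change was -0.20 (adjusted p = 0.678), and it fell by 0.26 without AdSirt4 replicate 1 (adjusted p = 0.0328). HIBADH, a valine enzyme, was at 79.3, 75.0 and 74.2 CPM in AdCtrl and at 77.0, 64.9 and 64.1 CPM in AdSirt4, with overlapping groups. Its log2 fold change was -0.15 with all samples (adjusted p = 0.738), and it fell by 0.25 without AdSirt4 replicate 1 (adjusted p = 0.0200). PCCA, the biotin-carrying subunit, fell by 0.25 in that fit (adjusted p = 0.0453), against -0.13 with all samples (adjusted p = 0.773). With the replicate block or the length trend removed, 0 of 13 were called, where 0.00564% and 0.0734% of all tested genes were. With the length trend removed and all samples kept, the same 4 genes were lower with an unadjusted p under 0.05 in edgeR's fit. The background for this was 14.1% in both directions. With the replicate block 0 of 13 reached an unadjusted p under 0.05 (background 7.2%).

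Of the biotin list, 5 of 6 genes had values below 0 with all samples and 0 were called. PC, pyruvate carboxylase, was at 15.04, 12.88 and 12.75 CPM in AdCtrl and at 10.91, 11.47 and 10.68 CPM in AdSirt4. Every AdSirt4 sample lay below every AdCtrl sample, and the log2 fold change was -0.30 (adjusted p = 0.602, or 0.0871 without AdSirt4 replicate 1). ACACA, acetyl-CoA carboxylase, was at 145, 137 and 148 CPM in AdCtrl and at 55.3, 139 and 142 CPM in AdSirt4, so that 1 library, for a gene of 11.2 kb, set its log2 fold change of -0.35, which was -0.035 without it. With the length trend removed from all libraries ACACA was at -0.27, so its value was not only that trend's. ACACB had -0.37 with all samples, -0.14 without AdSirt4 replicate 1 and -0.26 with the length trend removed. Of the biotin enzymes with sequences shown above, PCCA was called in the fit without AdSirt4 replicate 1, and MCCC1, PC and ACACA were not.

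ETFA and ETFB, which take electrons from IVD, were both highest in AdSirt4 replicate 1 and lowest in AdSirt4 replicates 2 and 3. ETFA was at 80.4, 74.6 and 79.7 CPM in AdCtrl and at 106, 70.4 and 70.3 CPM in AdSirt4. The log2 fold change was 0.071 for ETFA and 0.13 for ETFB, and without AdSirt4 replicate 1 it was -0.16 (adjusted p = 0.0879) and -0.22 (adjusted p = 0.0897).

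Of the transporters, 5 of 6 tested had values below 0 and 0 were called by edgeR with all samples. SLC43A1, a carrier of large neutral amino acids, was low, at 2.33, 2.26 and 3.31 CPM in AdCtrl and at 1.21, 0.893 and 1.62 CPM in AdSirt4, without overlap. In the fit SLC43A1 was at -1.08 (SE 0.280), with an adjusted p of 0.494 in edgeR, 0.0429 in DESeq2 and 0.0425 in edgeR without AdSirt4 replicate 1. SLC7A5, the leucine exchanger of the plasma membrane, was at 58.6, 52.4 and 77.9 CPM in AdCtrl and at 28.7, 49.7 and 59.5 CPM in AdSirt4, with overlapping groups and a log2 fold change of -0.45 (adjusted p = 0.719), which was -0.21 without AdSirt4 replicate 1 (adjusted p = 0.585).

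Leucine sensing and charging genes split evenly, with 5 of 10 above 0 and 5 below. SESN2, a leucine-binding brake on mTORC1, was at 77.1, 78.7 and 86.4 CPM in AdCtrl and at 40.2, 56.8 and 61.4 CPM in AdSirt4, so the groups were apart. In the fit SESN2 was at -0.61 (SE 0.164, edgeR adjusted p = 0.494), and without AdSirt4 replicate 1 it fell by 0.46 (adjusted p = 0.00318). SESN3 was at 1.054, 1.036 and 1.090 CPM in AdCtrl and at 0.539, 0.684 and 0.468 CPM in AdSirt4, a log2 fold change of -0.90 from 21 to 59 counts per sample (adjusted p = 0.494, or 0.0802 without AdSirt4 replicate 1). The values of SESN2 and SESN3 were below 0 in every fit run, as were those of MCCC1, PC, SLC7A5 and SLC43A1 among others. All these fits drew on the same samples. Of this list only SESN2 passed an adjusted p of 0.05 without AdSirt4 replicate 1.

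**Figure D5:**
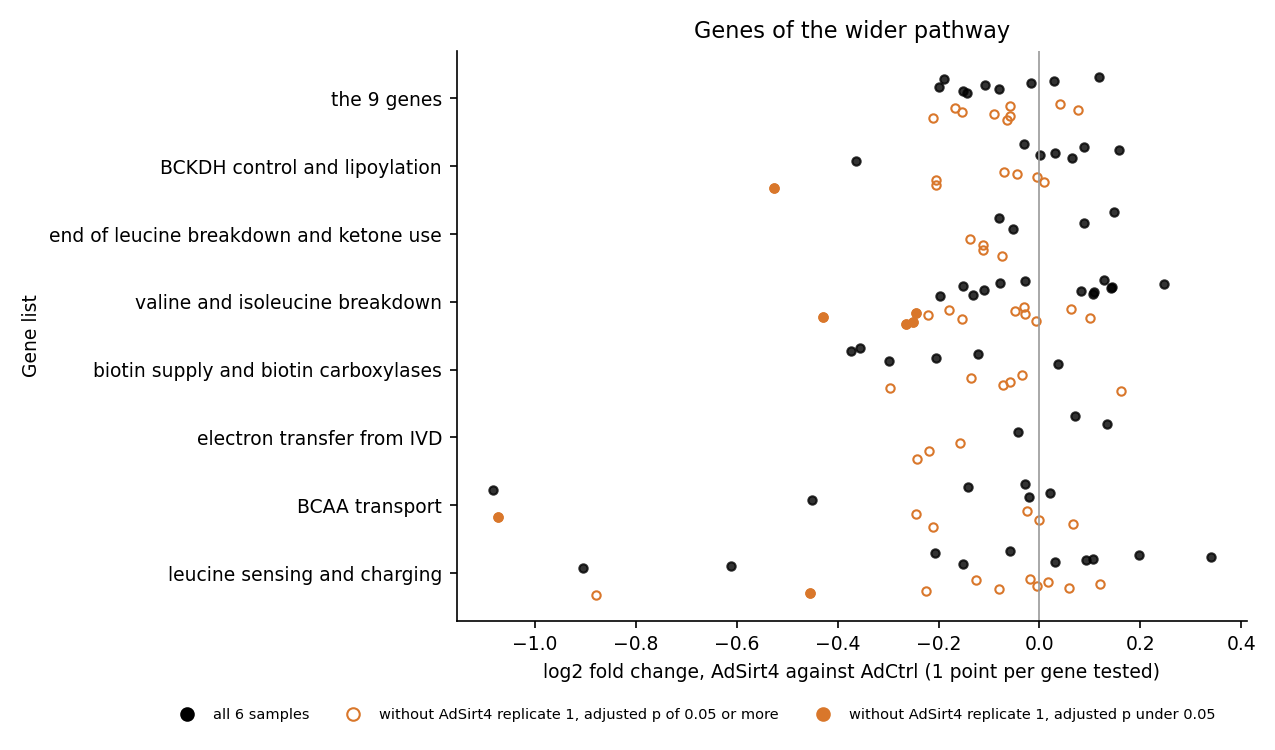
Each point is 1 tested gene, placed by its log2 fold change between AdSirt4 and AdCtrl (x axis) within its list (y axis), in black with all 6 samples and in orange without AdSirt4 replicate 1, where filled points have an adjusted p under 0.05. The 7 filled points all lie left of 0, with 4 of them in valine and isoleucine breakdown and 0 among the 9 genes.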

How the data were processed

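The authors deposited whole-number counts per gene, without normalization, and a second table whose unit is unnamed and whose deposited values behaved as FPKM. The submitters' notes list fastp 0.21.0, HISAT2 2.1.0, StringTie 2.1.5, DESeq2 1.30.1 and hg38 with no roles, and strand handling is not given in the sources used here. The library protocol describes no step that marks strand. The cell-line label carries a running number per sample, while every title names HK2. Counts were filtered with filterByExpr (minimum count 10), scaled by TMM and tested with edgeR 4.0.16 (R 4.3.3, robust quasi-likelihood test, two-sided, Benjamini-Hochberg over 17720 genes, threshold 0.05). Alternatives used DESeq2 1.42.0, limma 3.58.1 on log2(FPKM + 1), and each library's lowess trend on gene length removed (span 0.3). Gene length was implied by counts over FPKM, and 10386 of 13281 genes (minimum 50 counts per sample) gave the same length within 5%. Samples with the same replicate number deviated together (Pearson's r across genes of 0.15, 0.156 and 0.283, against -0.208 to 0.0495 for other pairs). Deviations were taken from each group's mean, so these correlations are not independent of each other. The numbers were taken as a possible pairing and used as a block in alternatives only. The main fit, the exact tests and the fits with samples left out were unpaired. No library was a copy of another (chi-square per gene between 9.36 and 213). Named genes were the 9 genes, SIRT4, the 2 with the smallest p in each list unless more were called, and fixed genes by role. Some listed genes are not reported here. The members and lists were chosen with earlier results of these data known. The procedure was tested on simulated counts with larger planted changes than those of the 9 genes, and without a length trend or an outlying library. The simulation therefore does not show how the procedure handles such small changes or such a library. The intervals on fold changes came from edgeR's fits and include the spread between samples. The counting error given for the smallest count leaves that spread out. Tables and figures used Python 3.11.15, numpy 2.4.6, pandas 2.3.3, scipy 1.17.1 and matplotlib 3.10.9.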

Additional observations from a re-analysis of the deposited data

How the results depend on the processing

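No gene of the 9 had an adjusted p under 0.05 in any of the 17 alternatives, and their median stayed below 0 (-0.16 to -0.061). An unadjusted p under 0.05 was met by 0 of them, and by 1 with the length trend removed, with or without the replicate block (0 to 2 with each sample left out). The count above 0 was 2, and 1 in the 4 limma fits and both length fits (2 to 3 with samples left out). BCAT2 turned from 0.030 to -0.023 in limma on log2(FPKM + 1), with or without the block or at a mean FPKM of at least 1, to -0.025 with a pseudocount of 0.1, and to -0.081 in both length fits, and ran from -0.17 to 0.12 with samples left out. BCKDHA ran from -0.093 to 0.076 with samples left out. ETFB turned to -0.061 and ETFA to -0.0014 with the length trend removed, and to -0.061 and -0.0078 with the block as well. With samples left out, ETFB ran from -0.22 to 0.29, ETFA from -0.16 to 0.18, ACAT1 from -0.14 to 0.29, LIAS from -0.0040 to 0.25, DLD from -0.044 to 0.16 and BCKDK from -0.071 to 0.0076. The log2 difference of MCCC1 over MCCC2 was 0.019, or -0.0022 as a ratio of counts, and -0.14 to 0.12 with samples left out. The ranges were -0.38 to 0.17 for BCAT1 over BCAT2, -0.13 to 0.30 for BCKDHA over BCKDHB and -0.34 to 0.13 for DBT over BCKDHB. SIRT4 had a log2 fold change of 6.36, and 4.88 in limma on log2(FPKM + 1) (adjusted p = 0.0847, or 0.150 with the replicate block), and 6.10 to 6.59 with samples left out, where its adjusted p rose above 0.05 without any 1 AdCtrl sample (0.0559 to 0.203).

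Over all genes 2 had an adjusted p under 0.05 in edgeR. This count was 212 in DESeq2, 5 for all genes with a count, 4 with at least 10 counts in every sample, 1 with the replicate block, 0 in limma on log2(FPKM + 1) with or without the block, 1 with a pseudocount of 0.1, 5 at a mean FPKM of at least 1, 13 with the length trend removed, and 0 to 1227 with samples left out, the highest without AdSirt4 replicate 1. An unadjusted p under 0.05 was reached by 1406 genes, and by 911 in limma at a mean FPKM of at least 1, 2504 with the length trend removed, 2461 with the block added, and 668 to 4446 with samples left out. The causes were not tested. With the replicate block PC lost and SLC7A5 gained an unadjusted p under 0.05, and no call at an adjusted p of 0.05 changed among the named genes. With 3 samples against 3, small changes of the 9 genes within the intervals given could not be seen.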
